A study of Danio rerio with 6 samples.

Results

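The genes described here are 60 zebrafish genes of the skeletal muscle sarcomere and of the membranes and enzymes that serve it, chosen by gene symbol from a list of muscle genes. They were followed in bulk RNA-seq of guts dissected from larvae at 5 days post-fertilization (dpf). Of the 60 genes, 54 were listed in the table of 15419 genes, and 44 had enough counts to be tested among 11095 genes. There were 3 libraries from wild-type (WT) larvae and 3 from larvae that lack il26 after CRISPR/Cas9 targeting, named il26KO here. Each library pooled 10 to 15 guts, and the labels name no treatment in either group. The wild-type line of the study was AB. The parents of both groups came from a shared clutch but were kept in separate tanks, so genotype and tank cannot be told apart. IL-26 belongs to the IL-10 cytokines, and the comparison asked what its loss changes in the early gut.

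Skeletal muscle contracts when myosin heads of the thick filament pull on actin of the thin filament, and both filaments repeat in units called sarcomeres. Calcium leaves the sarcoplasmic reticulum through ryanodine receptors, binds troponin C on the thin filament, and is pumped back by the SERCA ATPase. Trunk muscle of zebrafish holds fast fibres, which make up most of its mass, and a superficial layer of slow fibres, each with its own myosins and troponins. The wall of the larval intestine contains smooth muscle, which lacks sarcomeres and uses other actin, myosin and calponin genes. The gut lies against the body wall, whose muscle is skeletal.

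Library totals ranged from 15693057 to 28303340 counts, and 3 counts, taken as the smallest detectable amount, equalled 0.106 to 0.192 counts scaled to a common library size (CPM). CPM values were scaled by TMM and not by gene length, so levels are compared between libraries for a gene and not between genes. il26 itself had 0 counts in all 6 libraries, WT included, so it gave no check of the labels. No pair of libraries was alike within sampling noise, as the chi-square divided by its degrees of freedom was 15.9 to 50.7. As a list, gut epithelium markers were present in every library, with a summed level of 42714 to 54181 CPM over 14 tested genes of 16. Of that sum, chia.2 alone had 17368 to 20889 CPM. The enterocyte gene fabp2, of the same list, had 45 counts over all libraries, at 0.074 to 0.45 CPM. Its 2 counts in WT replicate 2 were below the smallest detectable amount.

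Transcripts of skeletal muscle genes were detected in every library of these guts. The listed members took 0.43% of the counts of WT replicate 1, 0.522% of WT replicate 2 and 0.802% of WT replicate 3. They took 0.718%, 0.482% and 0.612% of il26KO replicates 1, 2 and 3. The libraries of the 2 genotypes thus overlapped in the share of counts that came from the listed members. A large part of the members' level came from eno3, which ranged only 1.09-fold and made up 24.4% to 40.1% of the summed CPM of the tested members. The tissue that its reads came from was not tested. In bulk libraries, fewer muscle cells and less RNA per muscle cell cannot be told apart. Some regulators of the muscle lineage were also present, with myod1 at 2.64 to 5.01 CPM and myog at 1.92 to 3.36 CPM. Both encode transcription factors of the myogenic family, and they were tested in the list of regulators described further on. Others of that list were low or scarcely counted. myf6 had 0.29 to 1.27 CPM, while myf5, pax7a and pax7b had 10, 3 and 17 counts over all libraries, too few to be tested.

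Of the 54 listed members, 10 had too few counts to be tested, and several of these had a well covered relative. For creatine kinase, which regenerates ATP during contraction, ckma had 1 count over the 6 libraries and ckmb had 32627. For the regulatory light chain of fast myosin, mylpfa had 2 counts and mylpfb had 1621. The pattern recurred in the Z disc, where actn3a had 0 counts and actn3b 14340. The Z disc adaptor ldb3a had 7 counts and ldb3b 4531. For calsequestrin, the calcium store of the sarcoplasmic reticulum, casq1a had 1 count and casq1b 626. Fast troponin C, tnnc2, had 1 count over the 6 libraries, and myoglobin, mb, had 21.

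Some members are neighbours in the genome, and their counts were set side by side where both were listed. In the gene order of the GRCz12tu assembly (59 of 60 symbols matched), the slow myosin heavy chains smyhc1 and smyhc2 are adjacent. They differed, with 9 and 1910 counts. The parvalbumins, cytosolic calcium buffers of fast fibres, form 2 adjacent pairs. In the pair of pvalb2 and pvalb3 both genes had 0 counts, while in the pair of pvalb1 and pvalb4 they had 20133 and 15543. A count of 0 allows a level of up to 0.106 to 0.192 CPM in these libraries, as a limit on counting error only. How reads shared by near-identical copies were counted was not stated, so for these 10 genes low expression cannot be told apart from reads lost during alignment or counting. The genes myhz1.3, neb, ryr3, trdn, ttn.1 and ttn.2 were not among the listed genes under these symbols, so they were not analysed here.

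The 44 tested members varied strongly between libraries, and they did so together. Their summed level was 4410, 5229 and 7791 CPM in WT replicates 1, 2 and 3. It was 7187, 4831 and 6105 CPM in il26KO replicates 1, 2 and 3. WT replicate 3 and il26KO replicate 1 were the highest libraries, WT replicate 1 and il26KO replicate 2 the lowest, and the range within WT enclosed all il26KO libraries. Between 24.4% and 40.1% of the sum came from eno3 alone. Without eno3, pgam2 and tmod4, which did not share the spread, the sum ran from 2506 CPM in WT replicate 1 to 5775 CPM in WT replicate 3, a 2.30-fold range.

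**Figure D1:**
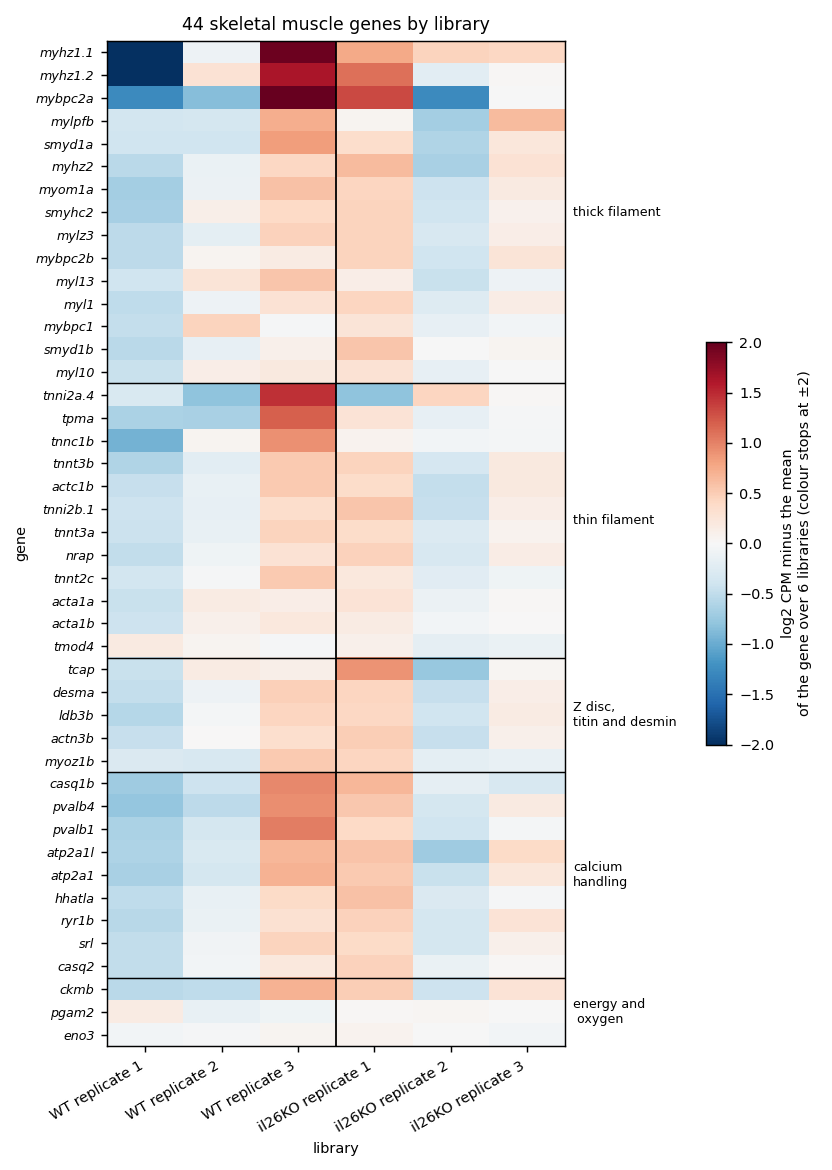
Level of the 44 tested skeletal muscle genes (rows, grouped by role) in the 6 libraries (columns), as log2 CPM minus the mean of the gene over the libraries, with colours that stop at 2 in each direction. WT replicate 3 and il26KO replicate 1 are red for most genes, WT replicate 1 and il26KO replicate 2 are blue, and eno3, pgam2 and tmod4 are pale throughout.

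The order of the libraries was shared by most members. WT replicate 3 was the highest WT library in 39 of 44 members, against 38.2% of all genes tested, and WT replicate 1 was the lowest in 39 of 44, against 36.4%. In il26KO, replicate 1 was the highest in 41 members, against 36.0% of all genes, and replicate 2 the lowest in 39, against 33.9%. The 2 highest of the 6 libraries were WT replicate 3 and il26KO replicate 1 in 35 of 44 members and in 7.74% of all genes. These libraries were picked after seeing the values, as the highest and lowest of the summed members in each genotype. An excess over all genes was therefore built in, here and in the library orders of members given below. The counts describe how the members moved together. The members share libraries and a tissue, so they are not independent observations of a library.

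Within a genotype, the SD of log2 CPM had a median of 0.45 over the members and of 0.15 over all genes tested. It exceeded the median of all genes in 41 of 44 members and the 90th percentile of all genes (0.42) in 28. A large spread was not particular to the muscle genes. In marker lists described further on, the median was 0.50 for liver, 0.59 for skin and 0.96 for notochord, cartilage and tendon. It was lower for smooth muscle (0.12), gut epithelium (0.17), acinar pancreas (0.30) and heart (0.32). The highest library was at least 2-fold above the lowest in 25 members, against 14.8% of all genes. The 3 members below a 1.5-fold range were eno3, pgam2 and tmod4. Spread of this size between pools of one genotype sets the precision of the comparison between genotypes below.

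**Figure D2:**
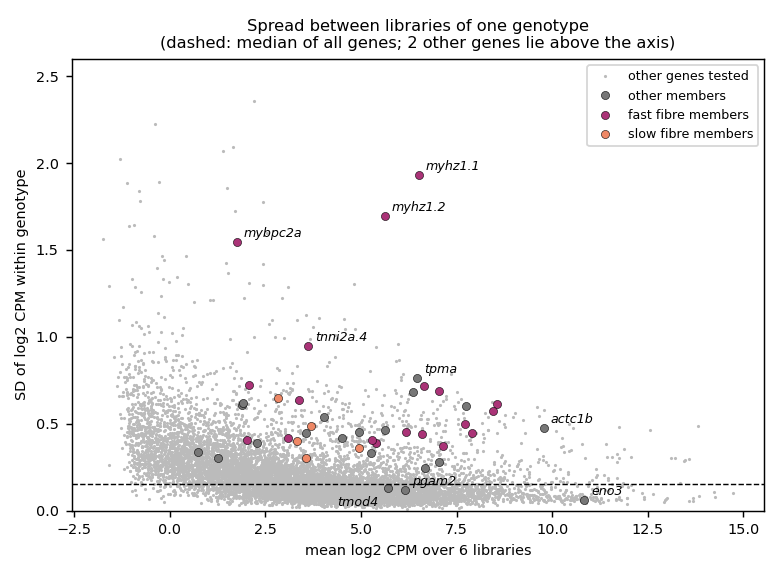
SD of log2 CPM between libraries of a genotype (vertical axis, pooled over both genotypes) against mean log2 CPM (horizontal axis) for all genes tested (grey points) and the skeletal muscle genes (large points, coloured by fibre type). Most muscle genes lie above the dashed median of 0.15, led by myhz1.1 with an SD of 1.93, while eno3 lies near 0.06.

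Among thick filament genes, the largest spread of all members was that of the tandem fast myosin heavy chains myhz1.1 and myhz1.2, motor proteins of fast fibres. myhz1.1 had 8.25, 84.7 and 352 CPM in WT replicates 1, 2 and 3, a 42.7-fold range within WT. It had 153, 123.3 and 120.5 CPM in il26KO replicates 1, 2 and 3, all within the range of WT. These CPM values came from 203 to 8418 counts, so counting error was small beside the spread. myhz1.2 had 6.82, 59.95 and 152 CPM in WT, and 105, 42.1 and 49.9 CPM in il26KO. The low library was WT replicate 1 for both genes, far below every other library. Reads of these near-identical neighbours may have been shared between them, so the value of each alone is uncertain.

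The other fast myosin heavy chain, myhz2, had a narrower range than the tandem pair. It had 243, 320 and 468 CPM in WT and 545, 225 and 430 CPM in il26KO, with the highest library in il26KO replicate 1. The myosin binding protein mybpc2a, the form of fast fibres, was again wide, with 1.34, 1.80 and 13.7 CPM in WT and 8.13, 1.34 and 3.24 CPM in il26KO. Its relative mybpc2b stayed between 27.2 and 53.2 CPM. The fast light chains mylz3 and myl1 ranged 1.97-fold and 1.90-fold over the 6 libraries, both lowest in WT replicate 1. Thick filament genes therefore differed in how far they varied, from 1.66-fold for myl10 to 42.7-fold for myhz1.1.

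The methyltransferases smyd1a and smyd1b, which assist myosin folding and sarcomere assembly in zebrafish, had low levels. smyd1b had 1.58, 2.06 and 2.46 CPM in WT and 3.41, 2.30 and 2.40 CPM in il26KO, with il26KO replicate 1 above all WT libraries and the other two among them. Its log2 fold change of 0.41 ± 0.23 (SE) was the largest positive value of any member, with an edgeR adjusted p of 0.884. myom1a, an M-line protein that links thick filaments, ranged from 10.3 to 24.6 CPM.

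The thin filament was represented by actins, tropomyosin and troponins. actc1b, an alpha actin of zebrafish skeletal muscle, had 641, 795 and 1260 CPM in WT and 1130, 629 and 1003 CPM in il26KO. The genotypes overlapped, and the difference between the highest and the lowest WT library was 1.97-fold. The skeletal alpha actins acta1a and acta1b ranged less, 1.65-fold and 1.54-fold, with WT replicate 1 lowest for both. tpma, a tropomyosin that lies along actin and gates myosin binding, had 56.9, 56.6 and 201 CPM in WT and 107, 79.1 and 87.0 CPM in il26KO. All 3 il26KO libraries of tpma lay between the low pair of WT libraries and WT replicate 3.

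Troponin genes followed the common order with an exception. The fast troponin T genes tnnt3a and tnnt3b, which anchor the troponin complex to tropomyosin, ranged 1.84-fold and 2.20-fold, both highest in WT replicate 3. The fast troponin I gene tnni2b.1 ranged from 52.7 to 106 CPM and was highest in il26KO replicate 1. The fast troponin I gene tnni2a.4 behaved differently, with 9.75, 6.89 and 33.1 CPM in WT and 6.95, 16.3 and 12.3 CPM in il26KO. il26KO replicate 1, high for most members, was among its lowest libraries. Its log2 fold change was -0.49 ± 0.57 (SE), the largest negative value of the members (edgeR adjusted p = 0.929). tmod4, which caps the pointed ends of thin filaments, stayed between 45.6 and 58.7 CPM and was highest in WT replicate 1.

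Z disc genes and the intermediate filament desmin, which ties neighbouring sarcomeres together, had one order of libraries in il26KO and more than one in WT. actn3b, the alpha-actinin that crosslinks actin at the Z disc of fast fibres, had 70.1, 97.8 and 122 CPM in WT and 136, 70.2 and 104 CPM in il26KO. The range of desma was 35.1 to 67.9 CPM, and that of ldb3b 20.7 to 41.1 CPM. tcap, which joins titin at the Z disc, ranged 3.16-fold, from 2.17 CPM in il26KO replicate 2 to 6.86 CPM in il26KO replicate 1. il26KO replicate 1 was the highest il26KO library in 5 of the 5 tested genes of this group, and il26KO replicate 2 the lowest in 5. In WT, replicate 3 was the highest and replicate 1 the lowest in 3 of 5, against 21.9% of all genes. The exceptions were tcap, highest in WT replicate 2, and myoz1b, a Z disc protein of fast fibres, lowest there.

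Among calcium handling genes, 9 of 9 tested members were highest within WT in replicate 3 and lowest in replicate 1, against 21.9% of all genes. The fast SERCA pump atp2a1 had 238, 295 and 608 CPM in WT and 542, 275 and 440 CPM in il26KO, so the il26KO libraries lay within the range of WT. Parvalbumin pvalb1 had 84.3, 102 and 266 CPM in WT and 172, 98.6 and 127 CPM in il26KO. pvalb4 ranged 3.24-fold. The calcium release channel ryr1b had 5.69, 7.62 and 10.3 CPM in WT and 11.5, 6.58 and 10.1 CPM in il26KO, and its log2 fold change was 0.27 with an SE of 0.25 (adjusted p = 0.916, edgeR). casq2, a calsequestrin also known from heart and slow fibres, ranged from 27.1 to 52.7 CPM. The calcium handling list as a whole ran from 494 CPM in WT replicate 1 to 1302 CPM in WT replicate 3.

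Energy genes split. ckmb followed the other muscle genes, with 147, 151 and 348 CPM in WT and 304, 162 and 259 CPM in il26KO. The glycolytic enzymes varied far less. eno3, a beta-enolase, had 1767, 1800 and 1898 CPM in WT and 1930, 1825 and 1764 CPM in il26KO, a 1.09-fold range. pgam2, a phosphoglycerate mutase, ranged from 63.8 to 79.0 CPM and was highest in WT replicate 1, the library lowest for most members. The highest libraries of eno3 were il26KO replicate 1 and WT replicate 3, as for most members, but by a small margin, while pgam2 did not share that order.

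Fast and slow fibre genes were then set side by side. The fast list had 26 genes, 19 of them tested, and the slow list 6 genes, 5 of them tested (smyhc2, tnnc1b, mybpc1, myl10 and myl13). The slow assignment of the light chains myl10 and myl13 is less certain than that of the others. The summed level of the fast list was 1256, 1724 and 3241 CPM in WT and 2857, 1541 and 2262 CPM in il26KO. That of the slow list was 50.05, 88.0 and 88.4 CPM in WT and 86.8, 61.6 and 71.0 CPM in il26KO. The highest fast library was 2.58-fold above the lowest and the highest slow library 1.77-fold, and the genotypes overlapped for both lists.

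The 2 lists did not keep a fixed ratio. The fast sum was 25.1, 19.6 and 36.7 times the slow sum in WT replicates 1, 2 and 3, and 32.9, 25.0 and 31.9 times in il26KO. As the log2 ratio of slow to fast, the WT value was -4.71 ± 0.46 (SD, n = 3) and the il26KO value -4.89 ± 0.22 (SD, n = 3), a difference of -0.18 that was smaller than the SD of either genotype. The extremes were both WT libraries, replicate 2 with the most slow and replicate 3 with the least slow relative to fast.

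Of the 5 slow genes, 4 had the order of most members in both genotypes, against 5.05% of all genes, and mybpc1 departed from it in WT. The slow myosin heavy chain smyhc2 had 8.12, 14.0 and 17 CPM in WT and 17.4, 9.71 and 13.6 CPM in il26KO, close to the order of the fast genes. tnnc1b, a troponin C of slow fibres, had 3.66, 7.25 and 13.2 CPM in WT and 7.36, 6.77 and 6.81 CPM in il26KO. For tnnc1b the il26KO libraries were nearly level, while WT covered a 3.61-fold range. The slow myosin binding protein mybpc1 had 22.1, 41.9 and 30.1 CPM in WT, where replicate 2 and not replicate 3 was the highest, and 36.8, 27.4 and 29.6 CPM in il26KO.

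The light chain myl10 had 8.65, 13.0 and 13.6 CPM in WT and 14.4, 10.5 and 11.7 CPM in il26KO. The light chain myl13 had 7.47, 11.9 and 14.5 CPM in WT and 10.8, 7.22 and 9.24 CPM in il26KO. For myl13 the lowest and the second lowest libraries came from different genotypes, and it had a log2 fold change of -0.30 with an SE of 0.24 (adjusted p = 0.905, edgeR). The pairs of libraries compared next were chosen after seeing the values, as the lowest and highest of the summed members in each genotype. A difference from all genes was therefore built into the choice. From WT replicate 1 to WT replicate 3 the median log2 difference was 1.098 over the fast genes, 0.96 over the slow genes and 0.020 over all genes tested. From il26KO replicate 2 to il26KO replicate 1 it was 0.81, 0.46 and -0.00017. By these medians, both lists were higher in WT replicate 3 than replicate 1 and in il26KO replicate 1 than replicate 2. WT replicate 2 departed from this. Its slow sum was 88.0 CPM against 88.4 CPM in WT replicate 3, while its fast sum was 1724 against 3241 CPM. The difference between the lists was not tested.

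**Figure D3:**
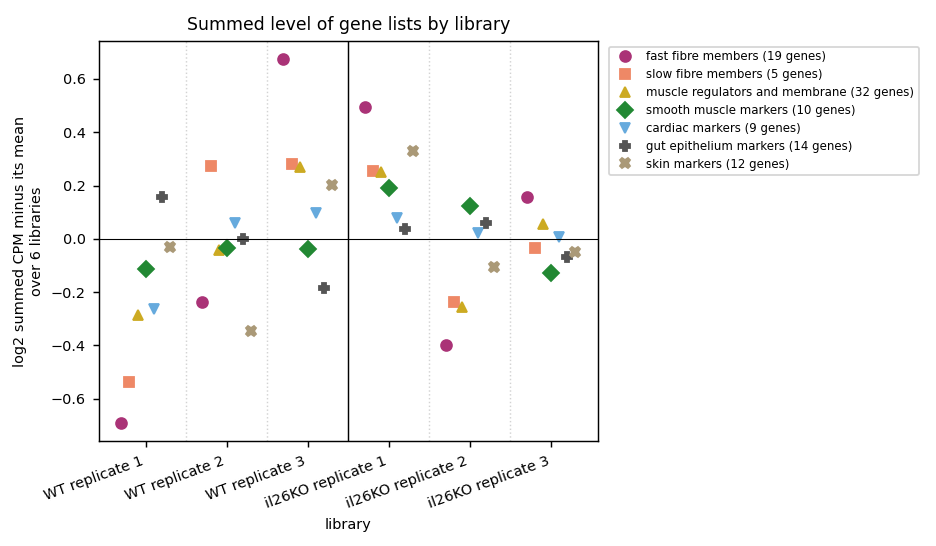
Summed CPM of 7 gene lists in each of the 6 libraries, as log2 minus the mean of the list over the libraries (vertical axis), with points side by side in each library. Fast fibre genes reach from 1256 CPM in WT replicate 1 to 3241 CPM in WT replicate 3, slow fibre genes and muscle regulators vary less, and smooth muscle and gut epithelium markers stay near 0.

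Between genotypes, no skeletal muscle gene passed the test. Of the 44 members, 0 had an adjusted p below 0.05, against 0.108% of all 11095 genes tested (edgeR quasi-likelihood test, Benjamini-Hochberg over all genes). At an unadjusted p below 0.05 there were 0 members, against 6.03% of all genes, and DESeq2 also gave 0 members at either threshold. The smallest adjusted p of a member was 0.884. The libraries of the genotypes failed to overlap in 0 of 44 members, against 10.9% of all genes. The median log2 fold change was 0.070 over the members, 0.084 over the fast genes, -0.0049 over the slow genes and 0.011 over all genes tested. A value above 0 was seen in 31 of 44 members and in 53.2% of all genes.

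**Figure D4:**
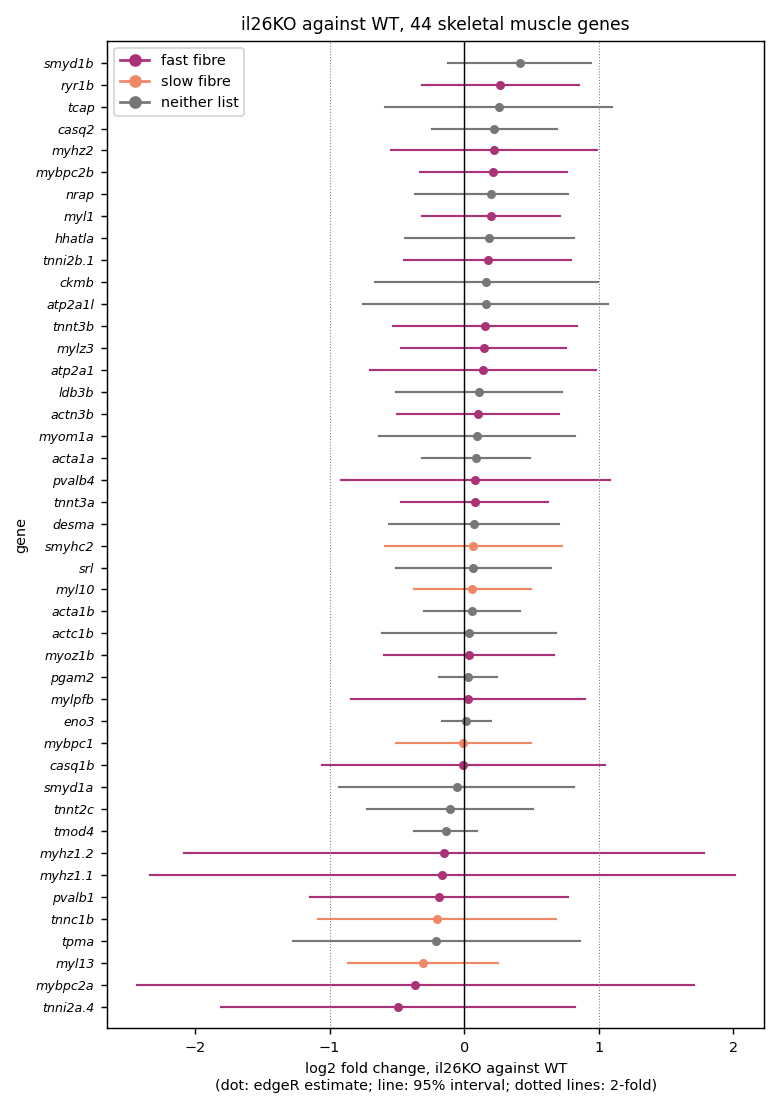
Log2 fold change of il26KO against WT for the 44 tested skeletal muscle genes (dot, edgeR estimate; line, 95% interval; dotted lines, 2-fold in each direction), coloured by fibre type. Every interval includes 0, and the widest are those of myhz1.1, mybpc2a and myhz1.2.

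The precision of these values differed greatly between members. The standard error of the log2 fold change had a median of 0.27 over the members and of 0.13 over all genes tested. For 33 of 44 members the 95% interval lay within a 2-fold change in either direction, while 9878 of all 11095 genes met the same limit. The narrowest interval was that of eno3, from -0.17 to 0.20. That of actc1b ran from -0.61 to 0.68, that of myhz2 from -0.55 to 0.98 and that of myhz1.1 from -2.33 to 2.01. Changes within these bounds remain compatible with the values of the 3 libraries in each genotype. The intervals are not adjusted over all genes, so they are not limits beyond which a change would have been called.

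The small positive median depended on single libraries. Without WT replicate 3 it was 0.42, with 40 of 44 members higher in il26KO, and 4 members had an unadjusted edgeR p below 0.05 (atp2a1, ckmb, pvalb4 and tpma, all higher). Without WT replicate 1 it was -0.12, with 10 of 44 higher and 2 members (myl13 and tnnc1b, both lower) at an unadjusted p below 0.05. Without il26KO replicate 1 it was -0.11, with 7 of 44 higher and tmod4 lower at that threshold. Without il26KO replicate 2 it was 0.23. In none of these 4 fits did a member have an adjusted p below 0.05, and the smallest was 0.247, for tpma without WT replicate 3. The direction of the list changed with the library left out. Over all genes tested, the median was between -0.011 and 0.017 in these 4 fits. Shares of all genes above 0 or below an unadjusted p of 0.05 are not given for these fits. The counts of members therefore have no background beside them.

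Genes of muscle outside the 60 were counted next. Of 39 muscle regulators and genes of the membrane system and neuromuscular junction, 32 were tested and 0 were called. At an unadjusted edgeR p below 0.05 there were 2 of 32 (6.25%), a share near the 6.03% of all genes. They were myf6, a myogenic transcription factor (log2 fold change 1.15 ± 0.39 (SE), adjusted p = 0.670), and chrnb1, a subunit of the acetylcholine receptor (-1.05 ± 0.38, adjusted p = 0.720). Both had few counts, 105 and 65 over the 6 libraries. Within WT, replicate 3 was the highest and replicate 1 the lowest in 26 of 32 regulators, against 36 of 44 members and 21.9% of all genes. Within il26KO, replicate 1 was the highest and replicate 2 the lowest in 18 of 32, against 38 of 44 members and 19.9% of all genes. Both orders held in 15 of 32, against 32 of 44 members and 5.05% of all genes. Of 13 further genes of fast fibres, 8 were tested and 0 called. At an unadjusted edgeR p below 0.05 there were 2 of 8 (25%), both higher in il26KO, against 6.03% of all genes. They were tnni2a.3 (0.62 ± 0.20, adjusted p = 0.658) and pvalb8 (0.57 ± 0.24, adjusted p = 0.814). The libraries of the genotypes failed to overlap in 1 of the 8, against 10.9% of all genes. Of 10 further genes of slow fibres, 4 were tested, and 0 had an unadjusted p below 0.05.

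Markers of other tissues were measured beside the muscle genes. Smooth muscle markers, led by acta2 and myh11a, had a summed level of 2697 to 3369 CPM over 10 tested genes of a list of 18, a 1.25-fold range. The sum does not show cnn1a, which had 0.61, 9.69 and 3.38 CPM in WT and 10.8, 6.26 and 0.49 CPM in il26KO. In 8 of the 10, il26KO replicate 1 was the highest il26KO library, against 36.0% of all genes. WT replicate 3 was the highest WT library in 4, against 38.2% of all genes. Heart markers summed to 227 to 291 CPM over 9 tested genes of 17, of which actc1a alone had 129 to 173 CPM. Of the same list, myh7 had 19.7 to 39.8 CPM and myl7 0.41 to 1.66 CPM, with nppa and nppb at 3 and 1 counts over all libraries. WT replicate 1 was the lowest WT library in 9 of the 9, while the highest pair of libraries was that of the muscle genes in 1. Skin markers summed to 1424 to 2272 CPM over 12 tested genes of 17, of which krt4 had 716 to 978 CPM and krt91 615 to 1057 CPM. Within that list, the basal keratinocyte gene krtt1c19e had 23.6, 16.98 and 57.3 CPM in WT and 69.0, 13.9 and 25.3 CPM in il26KO, so that its 2 highest libraries were those of the muscle genes. This held for 6 of the 12 skin markers, and WT replicate 1 was the lowest WT library in 2 of the 12, against 39 of 44 muscle genes. It did not hold for tp63, with 3.09, 2.76 and 3.13 CPM in WT and 4.59, 3.39 and 3.84 CPM in il26KO. The keratin krt5 had 6 counts over all libraries, too few to be tested.

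Some cartilage and fin genes stood out in WT replicate 3. matn1, a cartilage matrix gene, had 0.49, 1.69 and 6.94 CPM in WT and 0.95, 1.15 and 0.67 CPM in il26KO. and2, which encodes an actinodin of the fin fold, had 4.55, 1.105 and 63.3 CPM in WT and 0.50, 25.2 and 4.94 CPM in il26KO. The list of notochord, cartilage and tendon markers summed to 3.25 to 14.6 CPM over 5 tested genes of 15, with col2a1a, col8a1a and tbxta at 0 counts. WT replicate 3 was the highest WT library in 3 of the 5 tested genes, against 38.2% of all genes. Acinar pancreas markers summed to 37589 to 60591 CPM over 12 tested genes of 14.

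Liver markers shared the low libraries of the muscle genes but not the high ones. They summed to 37414 to 46407 CPM over 11 tested genes of 12, of which apobb.1 alone had 23632 to 29838 CPM. Within WT, apobb.1 had 28238, 25615 and 23632 CPM and was highest in replicate 1. The sum therefore does not show the spread of the other liver markers. WT replicate 1 was the lowest WT library in 10 of 11 liver markers and il26KO replicate 2 the lowest il26KO library in 10 of 11, while WT replicate 3 was the highest WT library in 0 of 11. For example, fabp10a, a fatty acid binding protein of hepatocytes, had 844, 2055 and 1671 CPM in WT and 1523, 1141 and 1452 CPM in il26KO. Gut epithelium markers ran the other way in WT, with a summed level of 54181, 48528 and 42714 CPM in replicates 1, 2 and 3, and had 49860, 50630 and 46289 CPM in il26KO. The part that any of these tissues played in the muscle values was not tested.

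The genes most like the members were found among the 11051 other tested genes, by Pearson correlation of log2 CPM with the mean of the members over the 6 libraries. The closest 10 had r from 0.982 to 0.994. In falling order they were dipk1c, myhc4, thbs4b, scube3, fli1a, epha3, egfl6, tacr1b, jph1b and slc25a4. As points of a correlation, these 6 libraries are few and share whatever else differs between them. The 10 were picked as the highest of 11051 values, so r this high comes in part from the picking. Some had low levels, as epha3 with 0.28 to 0.58 CPM and tacr1b with 0.20 to 1.34 CPM. myhc4, listed apart from myhz1.1 in the counts although the symbol is a RefSeq synonym of it, had 4.92, 7.03 and 15.3 CPM in WT and 12.2, 6.26 and 8.53 CPM in il26KO. thbs4b, a matrix gene known from tendon, had 5.00, 7.84 and 16.2 CPM in WT and 12.8, 6.65 and 8.60 CPM in il26KO. The tendon genes of the marker list, tnmd and scxa, were low and differed from it within WT. tnmd had 0.16, 0.55 and 0.42 CPM in WT and 1.23, 0.19 and 0.35 CPM in il26KO. scxa had 0.24, 0.52 and 0.42 CPM in WT and 0.32, 0.13 and 0.42 CPM in il26KO.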

How the data were processed

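RNA from guts dissected at 5 dpf was made into TruSeq Stranded mRNA libraries, per the labels. The authors deposited raw counts for each gene symbol, not normalized. They checked reads with FastQC v0.11.8 and aligned them to danRer11. The aligner, the counting tool, its annotation and strand setting are not given in the sources used here. Columns of other samples numbered 0, and each column was matched to its sample by library name.

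The members and gene lists were chosen with earlier results of these data known, and the comparisons of library order after the values were seen. Genes were kept by filterByExpr (minimum count 10, minimum total count 15), scaled by TMM and tested with the edgeR 4.0.16 quasi-likelihood test (R 4.3.3) with genotype as the only factor. P-values were two-sided and adjusted over all 11095 genes by Benjamini-Hochberg, with a threshold of 0.05. Standard errors were the log2 fold change over the square root of F. log2 CPM used a prior count of 2. Values in every library are given for the member with most reads of each role, slow fibre members, the 5 largest fold changes and the 5 largest spreads, other members being named as examples of their group. Alternatives were RLE or no scaling, TMM without the members, other count filters, leaving out each library, a replicate block and DESeq2 1.42.0. Totals of 15693057 to 28303340 counts limit precision less than the spread between libraries, and limits of detection cover counting error only. No sequences or coordinates are given.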

Additional observations from a re-analysis of the deposited data

How the results depend on the processing

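The number of members called was 0 in every setting run with edgeR and with DESeq2. Outside the reported fit, shares of all genes above 0 or below an unadjusted p of 0.05 are not given here. The counts of members in those fits therefore have no background beside them. The number of members with an unadjusted p below 0.05 was 0 in the reported fit and 0 to 4 with a single library left out. Without WT replicate 3 and il26KO replicate 1 together, a setting chosen after seeing the data, it was 4 (pvalb4, tnni2a.4 and tpma higher, tmod4 lower), and the median log2 fold change of the members was 0.21. With single libraries left out, that median ranged from -0.12 to 0.42, that of fast genes from -0.11 to 0.51 and that of slow genes from -0.22 to 0.17. The difference of the summed level between genotypes ranged from -521 to 1213 CPM around the reported 231 CPM, and that of the log2 ratio of slow to fast from -0.42 to 0.029. The median spread within a genotype ranged from 0.39 to 0.52. The medians of the members, fast genes and slow genes, the difference of the sum and that of the ratio all changed sign within these ranges. Under RLE factors, no scaling, TMM without the members, every library at 10 counts or more, no count filter and DESeq2, the median over the members was between 0.056 and 0.070. With no count filter and with DESeq2, 51 members entered in place of 44, and the slow median was -0.067 and -0.089. With the replicate block the median over the members was 0.087, with 36 of 44 above 0. There the fast median was 0.16 and the slow median 0.032, against 0.084 and -0.0049 as reported. The difference of the ratio was -0.19 without the most abundant fast and slow genes (atp2a1 and mybpc1) and -0.17 without myhz1.1 and myhz1.2.

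Over all genes, 12 were called in the reported fit, 80 by DESeq2, 2 with the replicate block and 3 to 8 with single libraries left out. Same-numbered libraries correlated at -0.23, -0.043 and 0.11 in their deviations from the group means, so the numbers were not taken as pairs. Signs were followed for the 17 genes whose values were given in every library by rule, so further members may have changed sign. Among the 17, with the replicate block the log2 fold change changed sign for mybpc1 (0.032), myhz1.1 (0.87), myhz1.2 (0.28) and tpma (0.071). That of eno3 was -0.0016 with TMM factors from other genes. Without WT replicate 3 and il26KO replicate 1, where 38 of 44 members were above 0, the sign changed for eno3 (-0.00071), tnnc1b (0.30), tnni2a.4 (0.76), mybpc2a (0.60), myhz1.1 (1.38), myhz1.2 (0.45) and tpma (0.54). With single libraries left out, log2 fold changes ranged from -0.12 to 0.65 for atp2a1, -0.038 to 0.045 for eno3, -0.083 to 0.51 for myhz2, -0.17 to 0.36 for actc1b, -0.16 to 0.30 for actn3b, -0.19 to 0.30 for smyhc2, -0.56 to 0.35 for tnnc1b, -0.22 to 0.26 for mybpc1, -0.13 to 0.17 for myl10, -0.87 to 0.50 for tnni2a.4, -1.21 to 1.45 for mybpc2a, -0.73 to 1.51 for myhz1.1, -0.70 to 0.97 for myhz1.2 and -0.51 to 0.68 for tpma. The cause was not tested. The signs of myl13, smyd1b and ryr1b held in every setting run.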
